A study of Mus musculus with 6 samples.

Results

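The enzymes that make phosphatidylcholine (PC) and phosphatidylethanolamine (PE) were compared between MA-10 cells and STARKO1 cells through the RNA of 10 genes, Chka, Chkb, Pcyt1a, Pcyt1b, Pcyt2, Chpt1, Cept1, Pisd, Lpcat1 and Lpcat3. They were chosen by symbol, not by their measured values, although earlier results of these data were known. Each was found among the 14774 genes of the deposited table. All 10 also passed the filter on low counts, which left 11939 genes. MA-10 is a mouse Leydig cell line that came from a testicular tumor, and STARKO1 is a clone grown from 1 MA-10 cell after CRISPR/Cas9 cutting within Star, the gene of the steroidogenic acute regulatory protein. Both were sequenced untreated, with 3 libraries of total RNA each. Because STARKO1 is 1 clone, the loss of Star and any other property of that clone cannot be told apart.

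PC and PE are the most abundant phospholipids of mammalian membranes, and PC also forms much of the monolayer around lipid droplets. In the Kennedy pathway, choline or ethanolamine is phosphorylated, activated with CTP and joined to diacylglycerol, while a separate mitochondrial route makes PE by removing a carboxyl group from phosphatidylserine. In the Lands cycle, acyltransferases then exchange the fatty acids of the finished phospholipids. Leydig cells store esterified cholesterol, the precursor of their steroids, in lipid droplets.

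Among these genes, Pcyt1b was higher and Chkb lower in STARKO1 cells in the main fit. Pcyt1b encodes the β form of CTP:phosphocholine cytidylyl transferase, the enzyme of the regulated step of PC synthesis, and its RNA was 2.05-fold higher. Chkb encodes choline kinase β, and its RNA was 1.69-fold lower. These 2 were the only genes of the 10 that passed an adjusted p of 0.05 (edgeR quasi-likelihood test, Benjamini-Hochberg adjustment over all tested genes), and the background was 9.04% of all tested genes. Of the alternative fits described below, 9 called neither of them. The Pcyt1b call was kept in 6 alternative fits and lost in 9, and the Chkb call was kept in 5 and lost in 10. The other 8 did not pass the test, and 4 of the 10 had an unadjusted p under 0.05 where 37.6% of all genes did. The median log2 fold change of STARKO1 against MA-10 was 0.14 over the 10 genes and -0.05 over all tested genes, and the median of its size was 0.50 and 0.49. As a list, the 10 genes thus stood close to the background.

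The sequences upstream of the genes with the clearest differences are shown here beside that of Pcyt1a. Pcyt1a is the more abundant cytidylyl transferase gene, and its start region can be read beside those of Pcyt1b. All are reference sequences from RefSeq on GRCm38.p6, written 5′ to 3′ on the strand of the gene. Of the 10 genes, 9 had an entry and Pcyt2 did not. Capitals mark matches on either strand to the GC box GGGCGG and to the E box CANNTG, with matches that overlap each other counted separately. Pcyt1a has 3 entries, of which the most upstream is shown, at chr16:32430671-32430920 on the plus strand, since the others reach into its exons.
Pcyt1a: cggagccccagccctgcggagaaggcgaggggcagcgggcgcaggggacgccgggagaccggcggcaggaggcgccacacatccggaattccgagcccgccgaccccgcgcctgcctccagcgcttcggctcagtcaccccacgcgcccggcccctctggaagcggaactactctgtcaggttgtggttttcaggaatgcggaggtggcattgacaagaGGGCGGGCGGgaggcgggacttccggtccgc
Pcyt1b has 2 entries, the first at chrX:93654613-93654862 before the start of the annotated gene and the second, shown up to the exon that follows it, at chrX:93674862-93675101 inside the gene, both on the plus strand.
Pcyt1b, first start: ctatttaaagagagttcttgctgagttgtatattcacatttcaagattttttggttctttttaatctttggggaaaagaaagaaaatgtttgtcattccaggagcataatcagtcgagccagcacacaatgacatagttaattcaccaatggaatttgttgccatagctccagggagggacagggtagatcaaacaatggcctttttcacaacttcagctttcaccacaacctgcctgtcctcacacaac
Pcyt1b, second start: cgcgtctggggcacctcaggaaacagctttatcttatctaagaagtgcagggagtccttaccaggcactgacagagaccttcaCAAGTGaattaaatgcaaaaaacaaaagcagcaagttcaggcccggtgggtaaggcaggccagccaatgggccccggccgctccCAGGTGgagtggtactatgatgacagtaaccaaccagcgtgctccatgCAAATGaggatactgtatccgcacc
The Chkb sequence is at chr15:89429928-89430177, before a gene on the minus strand.
Chkb: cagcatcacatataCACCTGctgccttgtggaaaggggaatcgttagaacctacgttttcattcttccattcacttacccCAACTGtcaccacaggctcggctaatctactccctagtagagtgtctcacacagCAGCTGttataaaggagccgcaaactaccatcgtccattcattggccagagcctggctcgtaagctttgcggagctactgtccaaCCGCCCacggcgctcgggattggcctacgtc

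The upstream sequences differed in base composition. The Pcyt1a sequence shown had a GC content of 71.6%, with 28 CpG dinucleotides in 250 bases, and its matches were 2 overlapping GC boxes. The second Pcyt1a entry had 67.6% GC with 2 GC boxes and 2 E boxes, and the third had 64.0% GC and neither motif. The first Pcyt1b sequence had a GC content of 39.6% with 1 CpG and held neither motif. Over its full 250 bases the second Pcyt1b sequence had 53.6% GC, 8 CpG and 3 E boxes. Chkb had 52.4% GC, 12 CpG, 3 E boxes and 1 GC box, which lies on the opposite strand and reads CCGCCC. The entry of Chka, the other choline kinase gene, is not shown and had 68.0% GC, 24 CpG, 2 GC boxes and 1 E box. Over all 32851 promoter entries of the same length, the median GC content was 52.4% with 6 CpG, and 32.7% held a GC box and 66.2% an E box. The sequence AAGGTCA, the letters recognized by the orphan receptor SF-1 of steroidogenic cells, was in 0 of the entries of the 9 genes and in 4.08% of all entries. These letter matches describe the windows and do not locate bound factors.

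The libraries held between 14114351 and 19530062 estimated counts, and the lowest count of any of the 10 genes was 105, whose 95% Poisson interval of 85.9 to 127 covers counting error only. Levels are given as CPM, counts scaled to a common library size with TMM factors. Star was at 1064, 1261 and 697 counts in MA-10 replicates 1 to 3 and at 48, 46 and 36 in the STARKO1 replicates (log2 fold change -5.09, SE 0.331, adjusted p = 0.00121). MA-10 replicate 1 stood apart from the other MA-10 libraries. Its log2 CPM correlated at 0.949 to 0.955 with the STARKO1 libraries, across 8538 genes. Correlations went from 0.802 to 0.974 among MA-10 libraries and from 0.995 to 0.996 among STARKO1 libraries. The 7SL RNA, which forms the core of the signal recognition particle, took 1.81%, 14.4% and 6.63% of counts in MA-10 replicates 1 to 3 and 1.82% to 2.37% in STARKO1 libraries. The TMM factors were 1.16, 0.654 and 0.805 in MA-10 and 1.17 to 1.19 in STARKO1, so that MA-10 replicate 1 was like the STARKO1 libraries in both measures and the other MA-10 libraries were not. The 8 Leydig markers were all listed, with summed levels of 1370 to 1840 CPM in MA-10 and 1290 to 1350 CPM in STARKO1. Cyp11a1 and Nr5a1 made up most of this sum. Of the 8, 1 passed the test, Hsd3b1, a steroid dehydrogenase, which was at 27.8, 37.2 and 24.3 CPM in MA-10 and at 5.12, 5.72 and 4.72 CPM in STARKO1 (log2 fold change -2.52, adjusted p = 0.00268), while Cyp11a1 was at -0.93 (adjusted p = 0.067), Cyp17a1 at 1.27 (adjusted p = 0.0949) and Nr5a1 at 0.42 (adjusted p = 0.189). Of markers of other testis cells, the table listed 1 of 4 for Sertoli cells (16.9 to 20.0 CPM in MA-10, 17.5 to 20.2 CPM in STARKO1, with Sox9, Amh and Fshr not listed), 2 of 4 for macrophages (4.86 to 9.85 and 6.37 to 8.56 CPM, with Adgre1 and Ptprc not listed) and 1 of 4 for germ cells (2.2 to 3.55 and 1.91 to 2.83 CPM). For endothelial cells 2 of 4 were listed (Kdr and Tek not), summing to 26.4 to 41.5 CPM in MA-10 and 118 to 124 CPM in STARKO1. That sum was nearly all Cdh5 (log2 fold change 1.84, adjusted p = 0.00596), while Pecam1 was at most at 0.86 CPM. For peritubular cells 2 of 4 were listed (Acta2 and Cnn1 not), at 13.0 to 20.5 and 1.72 to 2.59 CPM, nearly all Des (log2 fold change -3.0, adjusted p = 0.00499). The part of these libraries' properties and markers in the results was not tested.

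Choline kinases catalyze the entry of choline into the pathway, and both forms can also phosphorylate ethanolamine. Chkb (ENSMUSG00000022617, chr15:89426360-89429908 on the minus strand, GRCm38) was at 15, 16.7 and 16.5 CPM in MA-10 replicates 1 to 3 and at 10.3, 8.49 and 9.55 CPM in STARKO1 replicates 1 to 3. On the TMM scale every MA-10 library was above every STARKO1 library, and MA-10 replicate 1 was close to the other MA-10 libraries. The mean fell from 16.0 ± 0.903 CPM (SD, n = 3) to 9.45 ± 0.922 CPM (log2 fold change -0.76, SE 0.162, adjusted p = 0.0379, edgeR). A whole-culture RNA level does not tell fewer expressing cells from less RNA per cell. The Chkb call was kept in 1 of the 6 fits that left out 1 library, the fit without MA-10 replicate 1, with log2 fold changes of -0.76 to -0.68 over the 6. With libraries scaled by size alone the log2 fold change was -0.31 (adjusted p = 0.407, edgeR). The groups then overlapped, with 192 of 17641664 counts in MA-10 replicate 2 and 240 of 19530062 in STARKO1 replicate 1. MA-10 replicate 1, with 262 of 15129581, then lay above the other MA-10 libraries.

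Chkb shares sequence with its neighbors. Gm44502, a read-through gene on the same strand, covers 1552 of its exon bases (50.7%) and was at most at 0.528 CPM in any library. On the opposite strand, C730034F03Rik covers 320 bases (10.4%) and was at 0.687, 5.64 and 5.11 CPM in MA-10 and at 0.301, 0.472 and 0.281 CPM in STARKO1 (log2 fold change -3.40, adjusted p = 0.0483). Whether the counting used strand is not given in the sources used here, so the Chkb value is uncertain to the extent that reads were divided between these genes.

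Chka (ENSMUSG00000024843, chr19:3851773-3894369 on the plus strand) encodes choline kinase α, the form that many tumors overexpress. It was at 30.2, 11.0 and 16.9 CPM in MA-10 and at 30.1, 24.2 and 31.0 CPM in STARKO1. MA-10 replicate 1 lay within the STARKO1 range and the other MA-10 libraries lay below it. The means were 19.4 ± 9.85 and 28.4 ± 3.69 CPM (log2 fold change 0.55, SE 0.358, adjusted p = 0.289), so the difference was smaller than the spread between MA-10 libraries. On the opposite strand, AC133523.2 and Gm16066, neither listed in the table, overlap 165 and 74 of its exon bases.

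**Figure D1:**
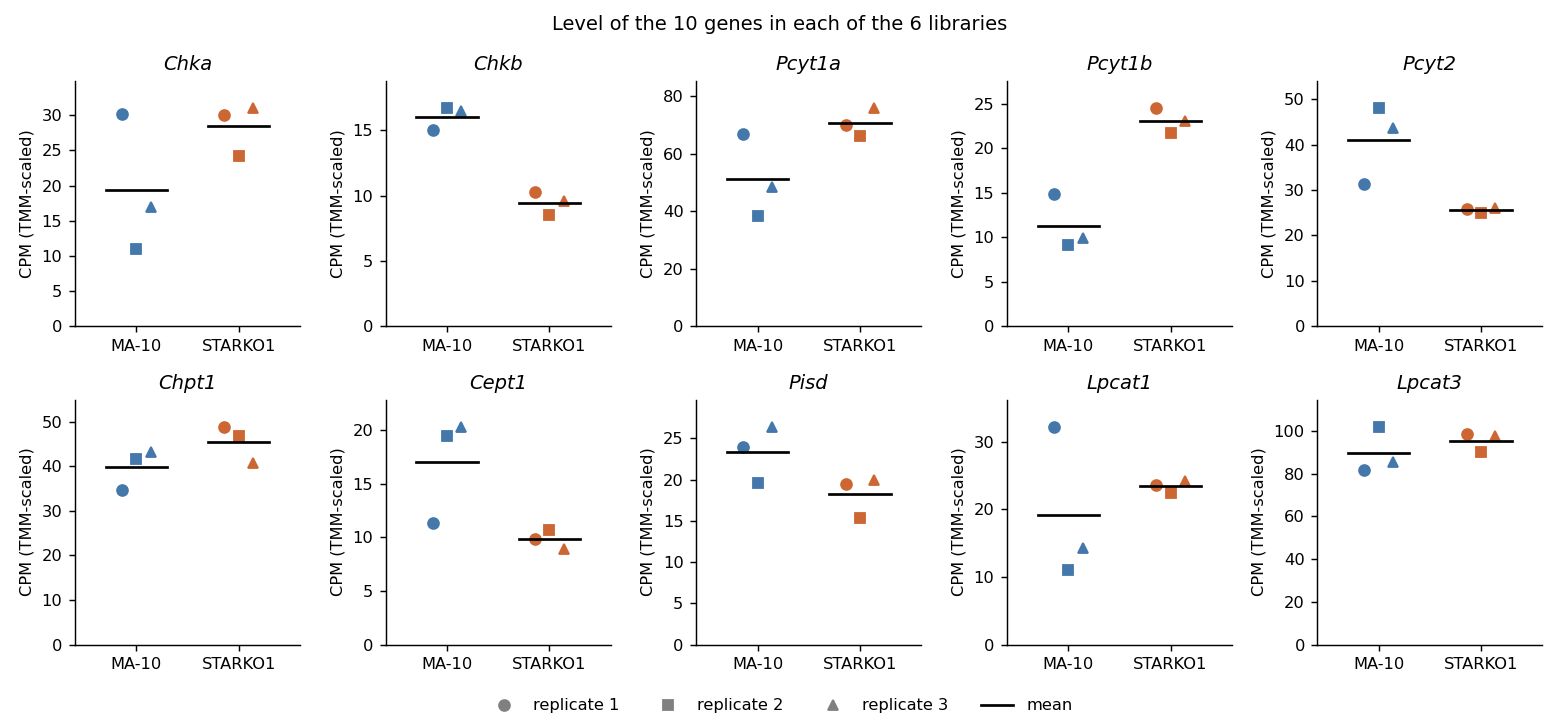
Level of the 10 genes in each library, as CPM of the TMM-scaled library size on axes that start at 0, with the libraries of a cell line side by side, the symbol giving the replicate number and the bar the mean of 3. Pcyt1b is higher in every STARKO1 library than in any MA-10 library, Chkb, Pcyt2 and Cept1 are lower in every one, and in Chka and Lpcat1 MA-10 replicate 1 lies far above the other MA-10 libraries.

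The cytidylyl transferases activate the phosphorylated head groups with CTP. Pcyt1b (ENSMUSG00000035246, chrX:93654863-93749951 on the plus strand), whose loss in mice impairs the gonads, was at 14.8, 9.11 and 9.86 CPM in MA-10 and at 24.5, 21.7 and 23.1 CPM in STARKO1. The groups did not overlap, and MA-10 replicate 1 was the MA-10 library nearest to STARKO1. The mean rose from 11.2 ± 3.08 to 23.1 ± 1.41 CPM (SD, n = 3, log2 fold change 1.03, SE 0.222, adjusted p = 0.0391). Of all tested genes, 20.7% had a fold change of larger size. Set against MA-10 replicate 1 alone, the STARKO1 mean was higher by 0.64 on the log2 scale. Leaving out each library in turn gave log2 fold changes of 0.90 to 1.37, and the call was kept in 1 of these 6 fits, the one without MA-10 replicate 1.

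Pcyt1a (ENSMUSG00000005615, chr16:32430921-32475070 on the plus strand) encodes the α form, which most tissues use and which moves between the nucleus and membranes. It was at 66.8, 38.2 and 48.4 CPM in MA-10 and at 70.0, 66.0 and 75.8 CPM in STARKO1. Only MA-10 replicate 1 reached the STARKO1 range. The means of 51.2 ± 14.5 and 70.6 ± 4.94 CPM were 1.38-fold apart, which did not pass the test (log2 fold change 0.46, SE 0.227, adjusted p = 0.177). On the opposite strand, Slc51a overlaps 567 exon bases of Pcyt1a (7.65%) and was at 2.49 to 3.24 CPM.

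Pcyt2 (ENSMUSG00000025137, chr11:120610087-120617936 on the minus strand) encodes CTP:phosphoethanolamine cytidylyl transferase, the matching step on the way to PE. Its levels were 31.4, 48.0 and 43.7 CPM in MA-10 and 25.9, 25.0 and 26.0 CPM in STARKO1. Every MA-10 library was above every STARKO1 library, with MA-10 replicate 1 again the nearest. The means were 41.0 ± 8.57 and 25.6 ± 0.568 CPM, and the difference missed the threshold (log2 fold change -0.68, SE 0.193, adjusted p = 0.0662). With libraries scaled by size alone the log2 fold change was -0.18 (adjusted p = 0.504).

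The phosphotransferases complete the Kennedy pathway by joining the activated head group to diacylglycerol. Cept1 (ENSMUSG00000040774, chr3:106502260-106547802 on the minus strand) encodes the enzyme of the endoplasmic reticulum that takes both choline and ethanolamine head groups. It was at 11.3, 19.4 and 20.3 CPM in MA-10 and at 9.81, 10.7 and 8.88 CPM in STARKO1. The groups did not overlap, but MA-10 replicate 1 lay just above the STARKO1 libraries. The means were 17.0 ± 4.96 and 9.78 ± 0.896 CPM (log2 fold change -0.79, SE 0.255, adjusted p = 0.0806), and with libraries scaled by size alone the log2 fold change was -0.28 (adjusted p = 0.393). Its fitted fold change was of larger size than that of Chkb, with a larger error. Dennd2d overlaps 771 of its exon bases (24.7%) on the opposite strand and was at 0.169 to 0.694 CPM.

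Chpt1 (ENSMUSG00000060002, chr10:88452745-88504073 on the minus strand), the cholinephosphotransferase of the Golgi, was at 34.6, 41.7 and 43.2 CPM in MA-10 and at 48.9, 46.9 and 40.7 CPM in STARKO1. The groups overlapped, with means of 39.8 ± 4.62 and 45.5 ± 4.26 CPM (log2 fold change 0.19, SE 0.164, adjusted p = 0.404). Sycp3, which is not listed in the table, overlaps 660 of its exon bases (7.93%) on the opposite strand.

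Thus, in TMM-scaled CPM, 4 of the 10 genes did not overlap between the cell lines, against 42.5% of all tested genes. Of all tested genes, 21.5% were higher and 21.0% lower without overlap. Pcyt1b had higher values in STARKO1, and Chkb, Pcyt2 and Cept1 had lower ones. With libraries scaled by size alone, the Chkb groups overlapped.

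Pisd (ENSMUSG00000023452, chr5:32736301-32785646 on the minus strand) encodes phosphatidylserine decarboxylase of the inner mitochondrial membrane, which makes PE within mitochondria. It was at 24.0, 19.6 and 26.4 CPM in MA-10 and at 19.5, 15.3 and 19.9 CPM in STARKO1, and the groups overlapped by a narrow margin. The means were 23.3 ± 3.46 and 18.2 ± 2.53 CPM (log2 fold change -0.36, SE 0.190, adjusted p = 0.207), and the sign turned to 0.06 when libraries were scaled by size alone. Of its 50-base exon windows, 18.5% also occur in other genes on the same strand. Most of these windows (17.9% of all) lie in Gm20671, which covers 1156 of its exon bases (20.1%) and is not listed in the table. The pseudogenes Pisd-ps1 and Pisd-ps2 hold 2.64% and 3.43% and were at 0.173 to 0.766 and 0.344 to 0.704 CPM.

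The lysophosphatidylcholine acyltransferases of the Lands cycle differ in the fatty acids they add. Lpcat3 (ENSMUSG00000004270, chr6:124663027-124704418 on the plus strand), which inserts polyunsaturated chains, was at 81.7, 102.0 and 85.5 CPM in MA-10 and at 98.6, 90.1 and 97.8 CPM in STARKO1. The means of 89.8 ± 10.9 and 95.5 ± 4.66 CPM differed by less than the SD between MA-10 libraries (log2 fold change 0.09, SE 0.159, adjusted p = 0.695). Emg1 overlaps 334 of its exon bases (10.2%) on the opposite strand and was at 53.5, 96.7 and 68.4 CPM in MA-10 and at 56.4 to 59.4 CPM in STARKO1.

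Lpcat1 (ENSMUSG00000021608, chr13:73467197-73516422 on the plus strand), known for saturated PC in lung surfactant, was the most uneven gene among the MA-10 libraries. It was at 32.2, 11.0 and 14.2 CPM there and at 23.6, 22.4 and 24.2 CPM in STARKO1. MA-10 replicate 1 was above every STARKO1 library and the other MA-10 libraries were below every one. The means were 19.1 ± 11.4 and 23.4 ± 0.896 CPM (log2 fold change 0.28, SE 0.388, adjusted p = 0.606).

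**Figure D2:**
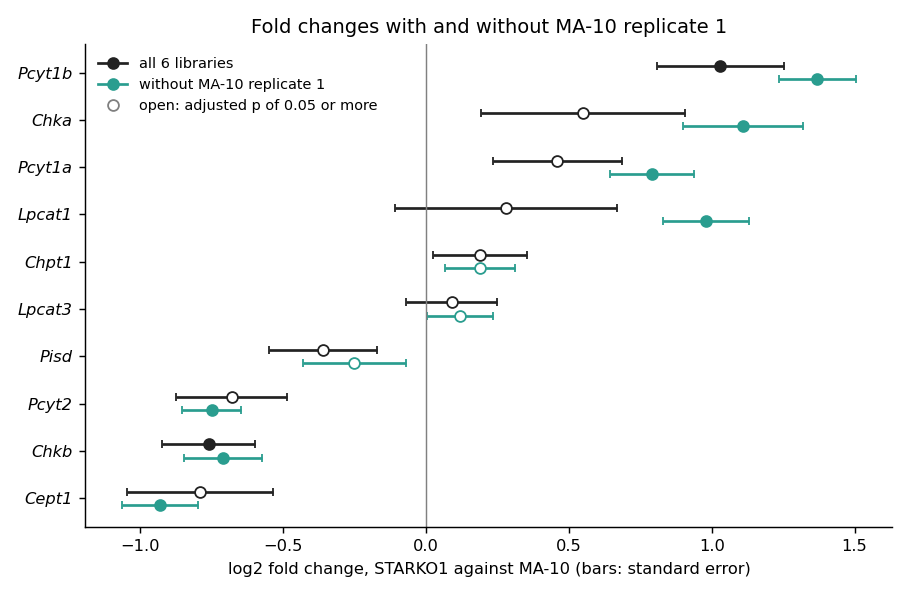
Log2 fold change of STARKO1 against MA-10 for the 10 genes with all libraries beside the value without MA-10 replicate 1, both with bars of 1 standard error and open points where the adjusted p was 0.05 or more. Without that library Chka moves from 0.55 to 1.11 and Lpcat1 from 0.28 to 0.98, while Chkb moves from -0.76 to -0.71.

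The number of genes that passed changed most when MA-10 replicate 1 was left out. Its log2 level minus that of the mean of the other MA-10 libraries was 1.35 for Lpcat1, 1.11 for Chka, 0.64 for Pcyt1b and 0.62 for Pcyt1a, and it was -0.81 for Cept1 and -0.54 for Pcyt2. For each of these 6 genes that library lay on the STARKO1 side of the other MA-10 libraries. It was within 0.30 of them for Chkb, Chpt1, Lpcat3 and Pisd. Without it, 7 of the 10 genes passed, where 65.7% of all tested genes did. Pcyt1a (log2 fold change 0.79, adjusted p = 0.00185), Pcyt1b (1.37, adjusted p = 7.21e-05), Chka (1.11, adjusted p = 0.00202) and Lpcat1 (0.98, adjusted p = 0.0007) were then higher in STARKO1. Pcyt2 (-0.75, adjusted p = 0.000417), Chkb (-0.71, adjusted p = 0.00206) and Cept1 (-0.93, adjusted p = 0.000472) were lower. Chpt1, Lpcat3 and Pisd did not pass, at 0.19, 0.12 and -0.25.

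Leaving out any other library ended both calls. The count was 0 of 10 without MA-10 replicate 2 (background 4.19%), MA-10 replicate 3 (1.49%) and STARKO1 replicates 1 (0.73%), 2 (1.11%) and 3 (0.76%), with 2 to 4 of the 10 at an unadjusted p under 0.05. DESeq2 called 4 of 10 (28.4% of all genes), namely Pcyt1b, Chkb, Pcyt2 and Cept1. The count stayed at 2 of 10 with at least 10 counts in every library (6.44%), with gene length offsets (10.5%) and without the 50 most abundant genes (8.49%). It was 1 of 10 with no filter on low counts (6.41%), where Chkb was at an adjusted p of 0.0543. It was 0 of 10 with upper quartile scaling (6.94%), library size alone (2.76%), a replicate block (1.96%) and the block with length offsets (2.2%), with 3 or 4 of the 10 at an unadjusted p under 0.05.

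The balance between genes that serve the same or neighboring steps was measured within each library as a log2 ratio of counts, which does not depend on the scaling of the library. The 5 pairs were tested by exact permutation over the libraries (two-sided), where 3 libraries against 3 cannot give a p below 0.1. The ratio of Pcyt1b to Pcyt1a was -2.17, -2.07 and -2.29 in MA-10 and -1.51, -1.60 and -1.71 in STARKO1. It was the most even of the ratios among the MA-10 libraries, and its group means differed by 0.57, with STARKO1 higher (SE 0.0874, exact permutation p = 0.1, adjusted over the pairs p = 0.125). In linear terms there were 0.204 to 0.239 Pcyt1b counts for each Pcyt1a count in MA-10 and 0.305 to 0.350 in STARKO1, and MA-10 replicate 1 was within the range of the other MA-10 libraries.

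The ratio of Chkb to Chka was -1.01, 0.59 and -0.04 in MA-10 and -1.54, -1.51 and -1.69 in STARKO1, a difference of -1.43 (SE 0.470, exact permutation p = 0.1, adjusted p = 0.125). The ratio of Pcyt2 to Pcyt1a, the PE against the PC branch, was -1.09, 0.33 and -0.15 in MA-10 and -1.43, -1.40 and -1.54 in STARKO1, a difference of -1.16 (SE 0.417, exact permutation p = 0.1, adjusted p = 0.125). For both ratios MA-10 replicate 1 lay nearest to STARKO1 without reaching it. The ratio of Chpt1 to Cept1 was 1.61, 1.10 and 1.09 in MA-10 and 2.32, 2.13 and 2.19 in STARKO1, a difference of 0.95 (SE 0.181, exact permutation p = 0.1, adjusted p = 0.125). The ratio of Lpcat3 to Lpcat1 was 1.34, 3.21 and 2.59 in MA-10 and 2.06, 2.01 and 2.02 in STARKO1. Its groups overlapped, with a difference of -0.35 (SE 0.549, exact permutation p = 0.7, adjusted p = 0.7), and without MA-10 replicate 2 the difference was 0.06.

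**Figure D3:**
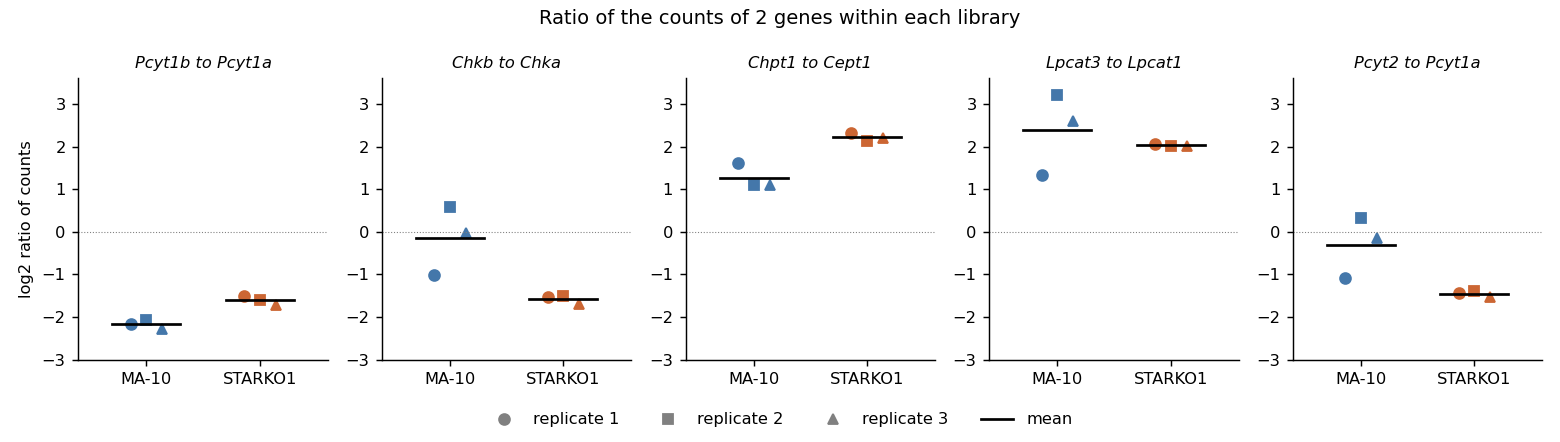
Log2 ratio of the counts of paired genes within each library, with the replicates of a cell line side by side and a bar at the mean of 3. The ratio of Pcyt1b to Pcyt1a is tightly grouped in both cell lines and higher in STARKO1, and the ratio of Lpcat3 to Lpcat1 spreads from 1.34 to 3.21 in MA-10.

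Levels of different genes were compared per kilobase of annotated exon sequence. Lpcat3 had the highest level in both cell lines, at 27.5 ± 3.35 CPM per kb in MA-10 and 29.2 ± 1.43 CPM per kb in STARKO1. In MA-10 cells it was followed by Pcyt2 at 9.44 ± 1.97, Pcyt1a at 6.90 ± 1.95, Cept1 at 5.45 ± 1.59, Chkb at 5.24 ± 0.295, Chpt1 at 4.79 ± 0.555, Lpcat1 at 4.13 ± 2.47, Pisd at 4.06 ± 0.601, Pcyt1b at 2.10 ± 0.575 and Chka at 1.61 ± 0.819 CPM per kb. Among neighbors in this order, the libraries of Lpcat3 and Pcyt2 and those of Pisd and Pcyt1b did not overlap, and all other neighbors overlapped.

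In STARKO1 cells the order was Lpcat3, Pcyt1a at 9.53 ± 0.667, Pcyt2 at 5.90 ± 0.131, Chpt1 at 5.47 ± 0.512, Lpcat1 at 5.05 ± 0.193, Pcyt1b at 4.31 ± 0.264, Pisd at 3.17 ± 0.439, Cept1 at 3.14 ± 0.288, Chkb at 3.09 ± 0.301 and Chka at 2.36 ± 0.307 CPM per kb. Here the neighbors that overlapped were Pcyt2 with Chpt1, Chpt1 with Lpcat1, Pisd with Cept1 and Cept1 with Chkb. Pcyt1b thus stood next to last in MA-10 and the sixth in STARKO1. The order depends on the length used: with the length of the longest transcript, 3 of the 10 genes kept their place in MA-10 and 7 in STARKO1, and the last gene was Pcyt1b in MA-10 and Cept1 in STARKO1.

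**Figure D4:**
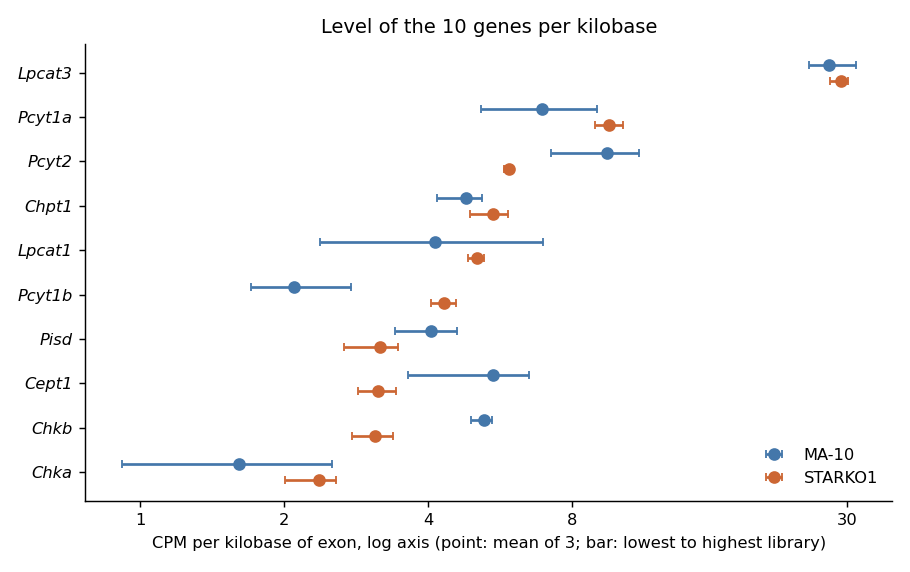
Level of the 10 genes per kilobase of exon sequence in both cell lines, in CPM per kb on a log axis, with the mean of 3 libraries as a point and a bar from the lowest to the highest library. Lpcat3 lies apart from the other genes in both cell lines, at 27.5 and 29.2 CPM per kb.

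The steps around these enzymes were covered by 7 lists of 58 other genes, of which 48 were in the table and 44 were tested. Of the 44, 0 were higher and 2 lower by the edgeR test, 12 had an unadjusted p under 0.05 (DESeq2 called 9), and 15 did not overlap between the cell lines (9 higher and 6 lower). The shares among all tested genes were 4.3% called higher, 4.74% called lower, 37.6% at an unadjusted p under 0.05, 28.4% called by DESeq2 and 42.5% without overlap. The median log2 fold change of the 44 was 0.05.

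Both genes that fell are on the list labelled enzymes that use PC or PE, of which 10 were tested, although 1 of them, Chdh, uses neither. Pla2g12a, a secreted phospholipase A2, was at 43.0, 116 and 69.7 CPM in MA-10 and at 28.3, 27.6 and 26.4 CPM in STARKO1, without overlap (log2 fold change -1.47, SE 0.350, adjusted p = 0.0483). Chdh, the mitochondrial choline dehydrogenase that oxidizes choline toward betaine and so acts on choline itself, was at 31.9, 19.4 and 24.8 CPM in MA-10 and at 13.5, 12.7 and 13.0 CPM in STARKO1, also without overlap (log2 fold change -0.96, SE 0.212, adjusted p = 0.0413). Of the 6 fits without 1 library, Pla2g12a passed in 1 and Chdh in 2. The most abundant gene of that list was Prdx6, a peroxiredoxin with phospholipase A2 activity, at 239 ± 64.4 and 140 ± 4.33 CPM (log2 fold change -0.77, adjusted p = 0.0753).

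In the other lists no gene passed. Among 11 genes of choline uptake and recovery, 5 had an unadjusted p under 0.05, where 37.6% of all tested genes did. The choline transporter Slc44a1 was at 97.2 ± 2.51 CPM in MA-10 and 73.2 ± 2.14 CPM in STARKO1 (log2 fold change -0.41, SE 0.137, adjusted p = 0.0865), and the lysophospholipase Lypla1 had the largest difference of that list (-0.95, SE 0.371, adjusted p = 0.115). Of the CTP synthases, Ctps2 was at 39.7 ± 10.9 and 70.8 ± 1.55 CPM (log2 fold change 0.83, SE 0.218, adjusted p = 0.0591) and Ctps had a log2 fold change of 0.20 (adjusted p = 0.441).

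In the ethanolamine and serine branch, with 7 genes tested, the sphingosine phosphate lyase Sgpl1, which releases phosphoethanolamine and had the highest mean over all libraries, was at 67.9 ± 3.58 and 48.0 ± 5.21 CPM (log2 fold change -0.50, adjusted p = 0.0752). The ethanolamine kinase Etnk1 was above it in STARKO1, at 53.9 CPM, and the kinase Etnk2 had a log2 fold change of 0.89 (adjusted p = 0.233). Etnk2 was low, at 2.0, 1.3 and 0.44 CPM in MA-10 and at 2.75, 2.77 and 1.63 CPM in STARKO1, with overlap. Among 5 other lysophospholipid acyltransferases, Lpgat1 had the highest mean over all libraries (log2 fold change -0.07, adjusted p = 0.783). Mboat2 differed most (0.60, adjusted p = 0.151) and was above Lpgat1 in STARKO1, at 50.2 against 42.8 CPM. Stard7, which carries PC to mitochondria, was both the most abundant and the most different of 4 transfer proteins (0.46, SE 0.212, adjusted p = 0.157). Of 5 genes for the import of phosphatidylserine into mitochondria, where Pisd uses it, Prelid1 had a log2 fold change of 0.03 (adjusted p = 0.918). Prelid2 had one of -1.04 (SE 0.461, adjusted p = 0.148). Its levels of 11.7, 42.7 and 20.3 CPM in MA-10 overlapped those of 13.9, 13.0 and 9.21 CPM in STARKO1.

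**Figure D5:**
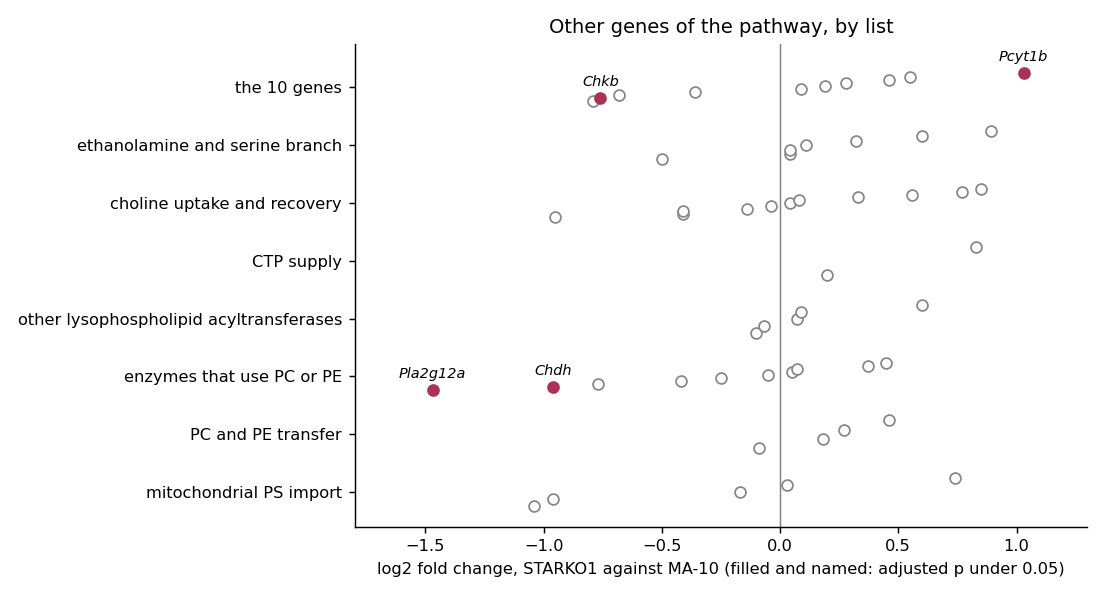
Log2 fold change of STARKO1 against MA-10 for each tested gene of the 7 lists and for the 10 genes in the top row, with filled and named points at an adjusted p under 0.05. Pcyt1b at 1.03 is the only filled point above 0, and Chkb, Chdh and Pla2g12a are the filled points below 0.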

How the data were processed

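RNA of 3 MA-10 and 3 STARKO1 libraries, prepared from total RNA by a kit that keeps strand, was compared. The authors deposited 1 table of estimated counts per gene, not normalized and with replicates kept apart, and 27.4% to 39.9% of the values of a library were not whole. Their processing notes name STAR 2.6.1d and Partek, with no role for either. Coordinates in the table are those of GRCm38, and those printed come from the GENCODE annotation of that build. The methods describe repeated independent experiments in general, without naming these libraries, so it is open whether they came from separate cultures. If not, p-values measure only the spread between these samples.

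Counts were rounded, and edgeR 4.0.16 was run under R 4.3.3 (filterByExpr, TMM scaling with factors of 0.654 to 1.19, glmQLFit and glmQLFTest, Benjamini-Hochberg adjustment). A gene was called at an adjusted p under 0.05. The common biological coefficient of variation was 0.291, and 3 counts corresponded to 0.129 to 0.264 CPM. Ratios of paired genes used counts plus 0.5. The main fit was also run on simulated counts, drawn with the same spread for every gene and for both cell lines, unlike these libraries. There it called 15.3% of 2-fold changes and 95% of 4-fold changes, and 3.51% of its calls were false. A gene that did not pass can therefore still differ between the cell lines. Alternatives were DESeq2 1.42.0, other scalings, filters, thresholds and length offsets, a replicate block, removal of the 50 most abundant genes and leaving out each library. Figures were made with Python 3.11.15 and matplotlib 3.10.9.

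The 10 genes and the lists were chosen with earlier results of these data known. Besides the 10 genes and Star, the text names the called genes of each list, its most abundant gene and its gene with the largest fold change. The genes that share the most sequence with one of the 10 are named beside it, outside that rule, as are marker genes and the most abundant gene of a list in 1 cell line.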

Additional observations from a re-analysis of the deposited data

How the results depend on the processing

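The main test called 1079 of all genes (47.5% of them higher), 2 of the 10 genes and 2 pathway genes. DESeq2 called 3395 genes, 4 of the 10 (Pcyt2 at -0.66, adjusted p = 0.0233, and Cept1 at -0.77, adjusted p = 0.0405, in addition) and 9 pathway genes. A minimum of 10 counts in every library gave 695 genes and 0 pathway genes, length offsets gave 4 pathway genes, and no filter gave 1 of the 10, with Chkb at -0.70 (adjusted p = 0.0543), and 0 pathway genes. Scaling by library size alone moved the median log2 fold change of all genes by 0.43 and upper quartile scaling by 0.15. Library size alone called 330 genes (63.6% of them higher), 0 of the 10 (Pcyt1b 1.40, adjusted p = 0.104, Chkb -0.31, adjusted p = 0.407) and 0 pathway genes, and turned Pisd to 0.06. It also gave -0.18 for Pcyt2, -0.28 for Cept1, 0.82 for Pcyt1a, 0.85 for Chka, 0.57 for Lpcat1, 0.66 for Chpt1 and 0.55 for Lpcat3, all with adjusted p above 0.05. Upper quartile scaling called 0 of the 10 (Pcyt1b 1.16, adjusted p = 0.0526, Chkb -0.61, adjusted p = 0.0711) and 0 pathway genes. Adjusted p thresholds of 0.01 and 0.1 gave 179 and 3471 genes, with 0 and 4 of the 10. Where a fit called 0, edgeR gave 2 to 4 of the 10 genes and 5 to 12 pathway genes at an unadjusted p under 0.05. With longest-transcript lengths 3 genes kept their place in the order of levels in MA-10 and 7 in STARKO1. The cause of these changes was not tested.

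The replicate numbers are not stated to mark a shared day or batch, so a replicate block was used only as an alternative. Same-numbered libraries deviated from their group means with correlations of -0.0346, 0.0907 and -0.0162. With so few libraries these values cannot show whether the libraries were paired. A replicate block called 234 genes, 0 of the 10 (Pcyt1b 1.07, adjusted p = 0.0765, Chkb -0.76, adjusted p = 0.11) and 0 pathway genes, and with length offsets it called 262, 0 (Pcyt1b 1.02, adjusted p = 0.0744, Chkb -0.68, adjusted p = 0.115) and 0.

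Leaving out 1 library called 89 to 7990 genes, 0 to 7 of the 10 and 0 to 29 pathway genes, with the highest counts without MA-10 replicate 1. Without MA-10 replicates 2 and 3 and STARKO1 replicates 1, 2 and 3, the counts were 511, 181, 89, 135 and 93 genes. The log2 fold changes were 0.90 to 1.37 for Pcyt1b, -0.76 to -0.68 for Chkb, 0.29 to 0.79 for Pcyt1a, -0.75 to -0.55 for Pcyt2, 0.26 to 1.11 for Chka, -0.93 to -0.65 for Cept1, 0.01 to 0.98 for Lpcat1, 0.18 to 0.27 for Chpt1, 0.05 to 0.19 for Lpcat3 and -0.47 to -0.24 for Pisd. Differences in log2 ratio were 0.51 to 0.62 for Pcyt1b to Pcyt1a, -1.86 to -1.06 for Chkb to Chka, -1.55 to -0.84 for Pcyt2 to Pcyt1a, 0.86 to 1.12 for Chpt1 to Cept1 and -0.87 to 0.06 for Lpcat3 to Lpcat1, which reversed without MA-10 replicate 2.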
